A study of Arabidopsis thaliana with 6 samples.

Results

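Phytochrome B, 3 of the transcription factors that act directly below it and 3 genes that mark the shade response were followed in Arabidopsis thaliana plants with altered jasmonate signaling. The genes were PHYB, PIF3, PIF4, PIF5, HFR1, ATHB2 and PIL1, 7 of the 32833 genes listed in the count tables. They are named for their place in this pathway by a rule that uses no measured value, although earlier results of these data were known when the set was put together. RNA-seq had been performed on 3 genotypes, LNJ-OX, jazD and the wild type Col-0, to ask which transcripts change in plants of reduced size. Each genotype had 2 libraries.

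LNJ-OX plants carry a transgene for LITTLE NINJA, a small protein made from part of the Arabidopsis AFP2 protein with a FLAG tag, under a strong viral promoter that is active in most tissues. The labels do not say whether both LNJ-OX libraries came from the same transgenic line. jazD is a multiple mutant that lacks several JAZ repressors of jasmonate signaling, and the labels do not list the mutated genes. Col-0 is the background of LNJ-OX and the untransformed control. According to the labels, all plants were 21 days old, were grown on soil with 16 h of light at 22 °C and 8 h of dark at 18 °C, received no treatment and were harvested without roots. The methods of the study describe leaves at a slightly different age, and the hour of harvest is not given. No library had been grown in shade or in far-red light, so the values below describe these genes in plants under ordinary long days.

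Phytochrome B is a red and far-red light receptor. In red light it moves to the nucleus, binds the basic helix-loop-helix factors called PIFs and brings about their degradation, which restrains stem and petiole elongation. Under a leaf canopy far-red light inactivates the receptor, PIFs accumulate, and they switch on genes such as ATHB2, PIL1 and HFR1. The pathway meets jasmonate signaling at the DELLA proteins, which bind PIFs and are themselves bound by JAZ proteins.

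The libraries held between 10164591 and 15003290 counts, and 21374 genes passed the filter on low counts. All 7 genes were among them. Levels are given as CPM, counts relative to the size of the library after scaling by TMM factors. AFP2, part of which is in the transgene, was at 63.5 and 49.998 CPM in LNJ-OX, 8.81 and 9.14 CPM in jazD, and 8.19 and 10.99 CPM in Col-0. It was thus high in LNJ-OX alone, and counts do not separate the transgene from the native gene. NINJA, the adaptor that links JAZ proteins to a corepressor, was at 70.6 and 65.2 CPM in LNJ-OX, 75.1 and 73.9 CPM in jazD, and 67.5 and 63.5 CPM in Col-0. JAZ6 was at 91.0 and 82.7 CPM in LNJ-OX, 5.24 and 4.05 CPM in jazD, and 94.0 and 68.7 CPM in Col-0. JAZ2 was likewise low in jazD alone, at 2.31 and 3.11 CPM. AFP2 therefore went with the LNJ-OX label. JAZ2 and JAZ6 were low in the JAZ mutant, but the labels do not name its mutated genes and other JAZ genes are not given. They are thus only a partial check of that label. NINJA, planned as a check beside AFP2, differed little between genotypes and cannot tell them apart.

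Tissue markers were uneven between libraries. Photosynthesis genes of the leaf (3 of 3 detected in every library) summed to 30566 and 28662 CPM in LNJ-OX, 37512 and 30371 CPM in jazD, and 29984 and 48856 CPM in Col-0. The sum of 5 root markers was 47.3 and 25.9 CPM in LNJ-OX, 100.04 and 173 CPM in jazD, and 9.32 and 21.4 CPM in Col-0. Nearly all of it was PYK10, a beta-glucosidase, at 99.2 and 173 CPM in jazD, while the root hair gene EXPA7 was at 0 in 5 of 6 libraries. The sum of 8 flower markers was 51.3 and 131 CPM in LNJ-OX, 23.9 and 32.8 CPM in jazD, and 88.3 and 110 CPM in Col-0. In LNJ-OX these markers did not move together. AGP11 had 0 and 1.03 CPM there against 17.1 and 13.5 CPM in Col-0. MS2 had 6.39 and 26.5 CPM in LNJ-OX against 3.78 and 5.73 CPM in Col-0. The part of these tissue differences in the results below was not tested. In whole organs, fewer cells that express a gene and less RNA per cell cannot be told apart.

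Because PIFs bind the G-box, the letters CACGTG, and a related E-box, CACATG on either strand, the 300 bases before the annotated start of each gene were searched for both in the TAIR10.1 assembly. A G-box was present in 7.06% of the 27561 nuclear protein-coding genes searched, and in 2 of the 7 genes, PHYB and PIF5. The E-box was present in 13.0% of all these promoters and in 0 of the 7. A match is a string of letters and not a measured binding site. The stretches that hold the matches are shown 5′ to 3′ on the strand of the gene with the G-box in capitals, because they are the only such matches in the set.
PHYB (chr2:8139573-8139687, plus strand): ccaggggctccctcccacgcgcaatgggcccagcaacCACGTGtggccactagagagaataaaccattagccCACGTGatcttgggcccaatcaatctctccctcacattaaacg
PIF5 (chr3:21830960-21831039, minus strand): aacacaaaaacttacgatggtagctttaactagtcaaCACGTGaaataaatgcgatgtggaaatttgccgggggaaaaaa

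In PHYB the G-boxes lay 146 and 111 bases before the start, and in PIF5 the match lay 165 bases before it. The promoters of PIF3, PIF4, HFR1, ATHB2 and PIL1 held neither string within the 300 bases. Sequence further upstream or within the genes was not searched, so these genes may hold either string there.

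None of the 7 genes passed the thresholds of the study in any of the 3 comparisons with edgeR. A call required that the adjusted p lay under 0.01 and that the log2 fold change exceeded 1 in size. At these cut-offs the study reported more genes in LNJ-OX and in jazD against Col-0 than were called here. Its own fit was not used, so 0 of 7 describes edgeR as fitted here. Across all genes tested, 1.42% passed for LNJ-OX against Col-0, 1.11% for jazD against Col-0 and 0.781% for LNJ-OX against jazD. DESeq2 and limma-voom also gave 0 of 7 in each comparison. At an unadjusted p under 0.05, 0 of the 7 passed for LNJ-OX against Col-0 (18.4% of all genes), 1 for jazD against Col-0 (14.9%) and 1 for LNJ-OX against jazD (13.1%). In both cases the gene was PIF4. With 2 libraries a genotype, the 95% intervals of the log2 differences below are wide, and a p above the threshold does not show that levels were equal.

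PHYB, the receptor (AT2G18790, TAIR10.1 chromosome 2, 8139756 to 8144461, plus strand), had 141 and 141 CPM in LNJ-OX, 131 and 99.1 CPM in jazD, and 123 and 97.0 CPM in Col-0. Both LNJ-OX libraries lay above all others, and jazD overlapped Col-0. The log2 fold change was 0.36 for LNJ-OX against Col-0 (SE 0.26, 95% interval -0.22 to 0.93, edgeR adjusted p = 0.518). For jazD against Col-0 it was 0.06 (SE 0.26, -0.51 to 0.64, adjusted p = 0.964). With 1 library left out the estimates ran from 0.19 to 0.56 for LNJ-OX and from -0.15 to 0.26 for jazD. The upper ends of these 95% intervals lay below a log2 difference of 1 in both genotypes, narrowly so in LNJ-OX (0.93), with only 2 libraries a genotype.

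PIF3, a factor best known from seedlings that emerge from darkness (AT1G09530, chromosome 1, 3075768 to 3079654, plus strand), had 18.9 and 16.1 CPM in LNJ-OX, 14.7 and 18.0 CPM in jazD, and 15.6 and 11.4 CPM in Col-0. LNJ-OX lay above Col-0 in both libraries by a narrow margin, and jazD overlapped both genotypes. The log2 fold changes were 0.37 for LNJ-OX (SE 0.26, edgeR adjusted p = 0.499) and 0.28 for jazD (SE 0.27, adjusted p = 0.761) against Col-0. Leaving out 1 library gave 0.17 to 0.64 for LNJ-OX and 0.07 to 0.54 for jazD.

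PIF4, which drives elongation in warmth and shade (AT2G43010, chromosome 2, 17886101 to 17889087, plus strand), had 57.1 and 28.3 CPM in LNJ-OX, 84.4 and 71.4 CPM in jazD, and 45.3 and 27.8 CPM in Col-0. Both jazD libraries lay above the other 4, while LNJ-OX overlapped Col-0. For jazD against Col-0 the log2 fold change was 1.09 (SE 0.34, 95% interval 0.33 to 1.85), a 2.13-fold higher estimate. Its edgeR adjusted p was 0.127 and its unadjusted p was 0.00924. The call was made only when no filter on low counts was applied (adjusted p = 0.00198), and the adjusted p ranged from 0.00198 to 0.474 over the alternatives. The log2 fold change was 0.78 without Col-0 replicate 2 (adjusted p = 0.321) and 1.51 without Col-0 replicate 1 (adjusted p = 0.0864). For LNJ-OX against jazD it was -0.86 (SE 0.34, -1.62 to -0.11, adjusted p = 0.294), and it ranged from -1.46 to -0.45 with 1 library left out. For LNJ-OX against Col-0 it was 0.22 (SE 0.34, -0.53 to 0.98, adjusted p = 0.783). That estimate was -0.37 when LNJ-OX replicate 1 was left out and 0.64 when Col-0 replicate 1 was, so its sign depended on the libraries kept.

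PIF5, the close relative of PIF4 (AT3G59060, chromosome 3, 21827905 to 21830837, minus strand), had 178 and 148 CPM in LNJ-OX, 147 and 148 CPM in jazD, and 195 and 106 CPM in Col-0. The Col-0 libraries enclosed the values of both other genotypes. The log2 fold changes were 0.12 for LNJ-OX (SE 0.31, edgeR adjusted p = 0.887) and -0.03 for jazD (SE 0.31, adjusted p = 0.989) against Col-0. The estimate for LNJ-OX was -0.26 without Col-0 replicate 2 and 0.64 without Col-0 replicate 1, and that for jazD was -0.40 without Col-0 replicate 2 and 0.50 without Col-0 replicate 1.

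**Figure D1:**
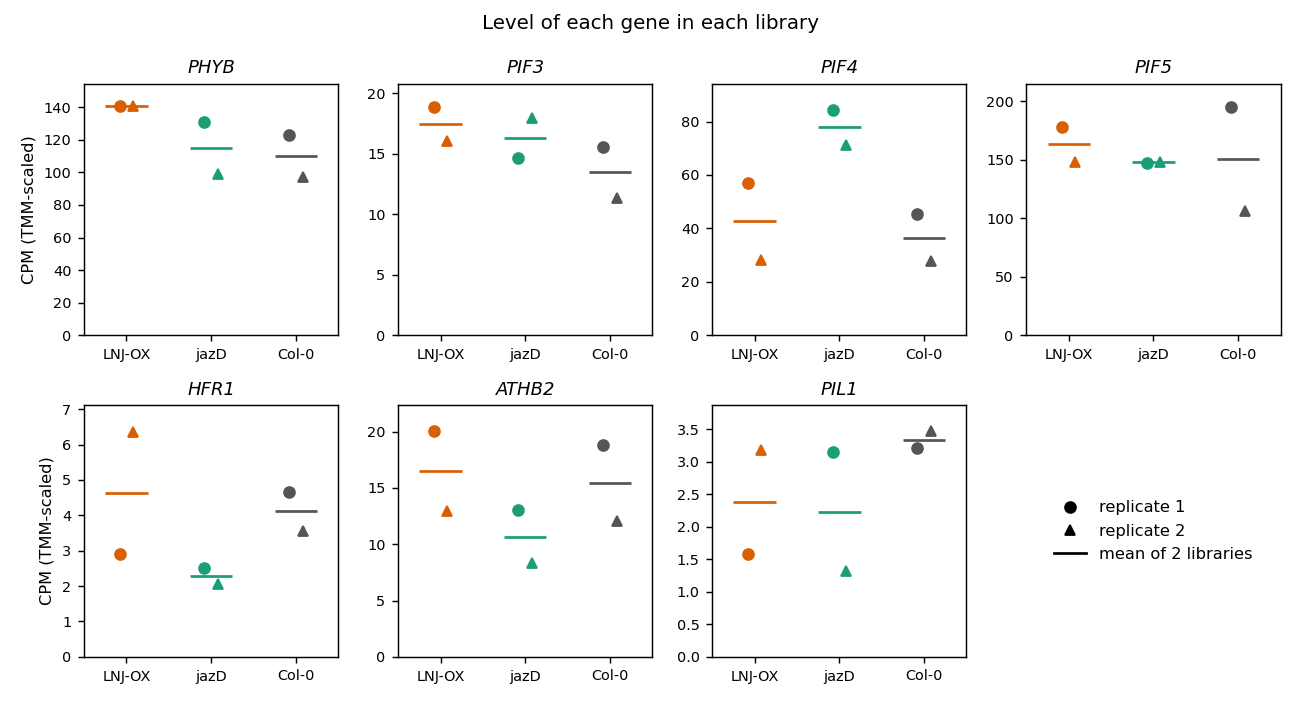
Levels of the 7 genes in each library, as CPM scaled by TMM factors on a linear axis that starts at 0, with LNJ-OX, jazD and Col-0 from left to right. Circles are replicate 1, triangles are replicate 2 and horizontal lines are means of 2 libraries. Both jazD libraries of PIF4 (84.4 and 71.4 CPM) stand above the other 4, and in PIF5 the Col-0 libraries (195 and 106 CPM) enclose all the others.

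HFR1, an atypical helix-loop-helix protein that binds PIFs and holds the shade response in check (AT1G02340, chromosome 1, 465616 to 467880, minus strand), was low, with 22 to 74 counts a library. It had 2.90 and 6.37 CPM in LNJ-OX, 2.52 and 2.07 CPM in jazD, and 4.66 and 3.57 CPM in Col-0. Both jazD libraries were the lowest of the 6, and LNJ-OX spanned the Col-0 values. The log2 fold change was -0.85 for jazD against Col-0 (SE 0.47, 95% interval -1.89 to 0.20, edgeR adjusted p = 0.485). For LNJ-OX against jazD it was 1.001 (SE 0.47, -0.04 to 2.05, adjusted p = 0.404), with 0.33 without LNJ-OX replicate 2 and 1.47 without LNJ-OX replicate 1. For LNJ-OX against Col-0 it was 0.15 (SE 0.45, adjusted p = 0.8996), with -0.52 without LNJ-OX replicate 2 and 0.63 without LNJ-OX replicate 1.

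ATHB2, a homeodomain-leucine zipper factor and an early shade marker (AT4G16780, chromosome 4, 9449114 to 9450905, plus strand), had 20.1 and 12.9 CPM in LNJ-OX, 13.0 and 8.29 CPM in jazD, and 18.8 and 12.02 CPM in Col-0. In each genotype replicate 1 was the higher, and the genotypes overlapped. The log2 fold changes were 0.09 for LNJ-OX (SE 0.33, edgeR adjusted p = 0.918) and -0.54 for jazD (SE 0.34, 95% interval -1.29 to 0.21, adjusted p = 0.555) against Col-0. The LNJ-OX estimate was -0.26 when LNJ-OX replicate 1 was left out and 0.48 when Col-0 replicate 1 was. The jazD estimate was -0.90 without jazD replicate 1 and -0.16 without Col-0 replicate 1.

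PIL1, a PIF-related factor strongly induced by shade (AT2G46970, chromosome 2, 19295431 to 19297858, minus strand), had the lowest level of the 7, with 14 to 51 counts a library. It had 1.58 and 3.18 CPM in LNJ-OX, 3.15 and 1.32 CPM in jazD, and 3.21 and 3.47 CPM in Col-0. Both Col-0 libraries lay just above the highest library of each other genotype. The log2 fold changes were -0.50 for LNJ-OX (SE 0.53, 95% interval -1.67 to 0.67, edgeR adjusted p = 0.668) and -0.59 for jazD (SE 0.54, -1.78 to 0.60, adjusted p = 0.745). The LNJ-OX estimate was -1.08 without LNJ-OX replicate 2 and -0.06 without LNJ-OX replicate 1. The jazD estimate was -1.33 without jazD replicate 1 and -0.08 without jazD replicate 2. The intervals allowed a level lower by more than 1 log2 unit as well as no difference.

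**Figure D2:**
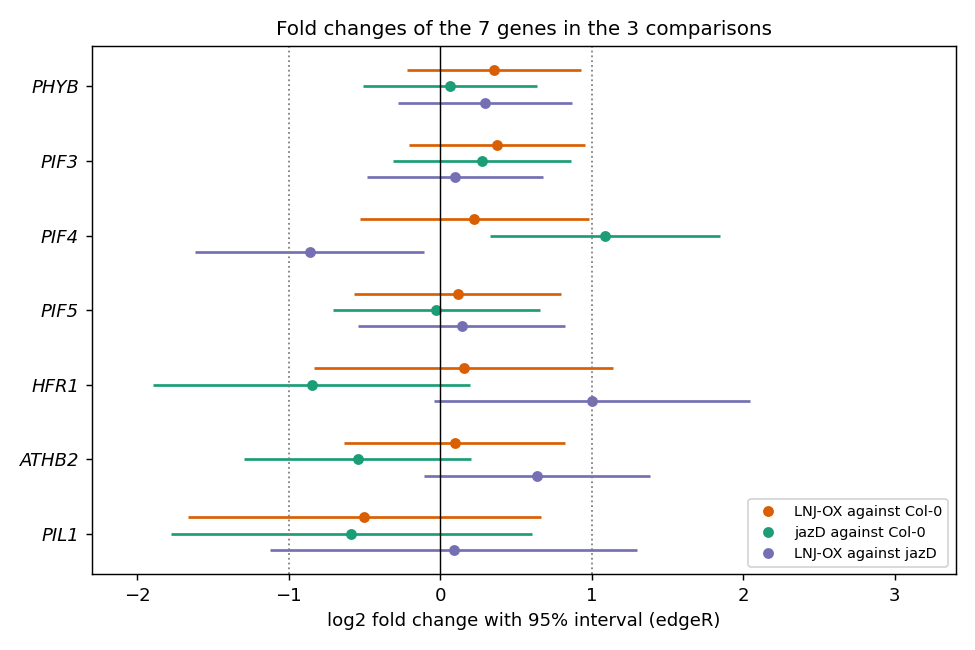
Log2 fold changes of the 7 genes with their 95% intervals from edgeR, for LNJ-OX against Col-0, jazD against Col-0 and LNJ-OX against jazD. The intervals of PIF4 lie above 0 for jazD against Col-0 (0.33 to 1.85) and below 0 for LNJ-OX against jazD (-1.62 to -0.11), neither of which passed after adjustment, and the other intervals cross 0.

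Over the set, the median log2 fold change was 0.15 for LNJ-OX and -0.03 for jazD against Col-0, beside -0.01 and 0.01 for all genes tested. It was 0.14 for LNJ-OX against jazD, where all genes had 0.00. The libraries of LNJ-OX and Col-0 did not overlap for 3 of the 7 genes (47.8% of all genes), with PHYB and PIF3 higher and PIL1 lower in LNJ-OX. Those of jazD and Col-0 did not overlap for 3 genes (40.6% of all genes), with PIF4 higher and HFR1 and PIL1 lower in jazD. Those of LNJ-OX and jazD did not overlap for 3 genes (50.4% of all genes), with PHYB and HFR1 higher and PIF4 lower in LNJ-OX. The counts for the set were near these shares. The low libraries were shared between genes, since Col-0 replicate 2 was the lowest of all 6 for PHYB, PIF3, PIF4 and PIF5, and jazD replicate 2 was the lowest for HFR1, ATHB2 and PIL1.

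To compare genes with each other, levels were divided by exon length, giving CPM per kb. PIF5 was the highest of the 7 in every genotype, at 63.7 ± 8.19 CPM per kb in LNJ-OX, 57.8 ± 0.281 in jazD and 58.8 ± 24.5 in Col-0 (SD, n = 2 each). Then came PHYB, at 31.1 ± 0.0531 CPM per kb in LNJ-OX, 25.4 ± 4.95 in jazD and 24.3 ± 4.06 in Col-0, and PIF4, at 16.5 ± 7.85 in LNJ-OX, 30.0 ± 3.56 in jazD and 14.1 ± 4.77 in Col-0. PHYB was above PIF4 in both libraries of LNJ-OX and of Col-0, whereas PIF4 was above PHYB in both libraries of jazD (32.5 against 28.9 and 27.5 against 21.9 CPM per kb).

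Below them lay ATHB2, at 12.4 ± 3.80 CPM per kb in LNJ-OX, 7.99 ± 2.498 in jazD and 11.6 ± 3.62 in Col-0. PIF4 was above ATHB2 within each of the 6 libraries, although their ranges over libraries overlapped in LNJ-OX and in Col-0. PIF3 followed, at 6.33 ± 0.717 CPM per kb in LNJ-OX, 5.92 ± 0.851 in jazD and 4.87 ± 1.075 in Col-0. In jazD ATHB2 was above PIF3 in replicate 1 only, so their order there lay within the spread. HFR1 was at 3.04 ± 1.61 CPM per kb in LNJ-OX, 1.51 ± 0.206 in jazD and 2.70 ± 0.508 in Col-0. PIL1 was at 1.38 ± 0.658 CPM per kb in LNJ-OX, 1.30 ± 0.749 in jazD and 1.94 ± 0.107 in Col-0, the lowest mean in every genotype. In jazD HFR1 was above PIL1 in replicate 2 only.

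PIF4 was also set against PIF5, its close relative, and against PHYB, comparisons made after their values were seen. The ratio of PIF4 to PIF5 in CPM per kb was 0.565 and 0.474 in jazD and 0.317 and 0.188 in LNJ-OX, against 0.229 and 0.258 in Col-0. The jazD ratios were above the other 4, and LNJ-OX enclosed Col-0. The mean ratio was 0.519 ± 0.0641 in jazD and 0.244 ± 0.0203 in Col-0 (SD, n = 2 each). An exact permutation test of 2 against 2 libraries cannot give a two-sided p below 0.333, so none was read. The ratio of PIF4 to PHYB was 1.13 and 1.26 in jazD and 0.709 and 0.350 in LNJ-OX, against 0.642 and 0.500 in Col-0.

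**Figure D3:**
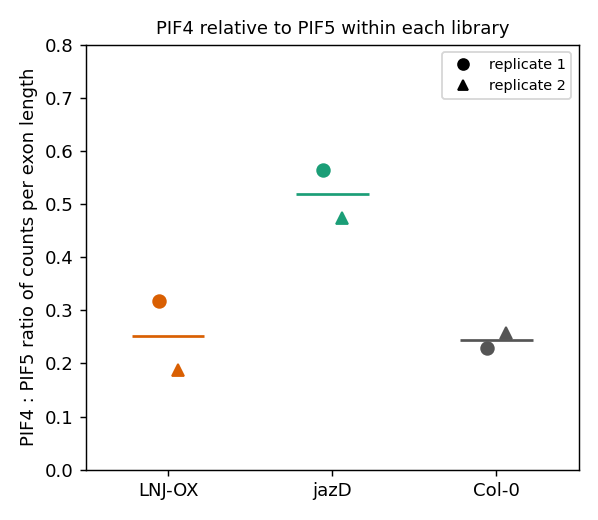
Ratio of PIF4 to PIF5 within each library, from counts per exon length, with LNJ-OX, jazD and Col-0 from left to right. Circles are replicate 1, triangles are replicate 2 and lines are means, and both jazD libraries (0.565 and 0.474) lie above the other 4.

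The 7 genes did not share a single profile over the 6 libraries. Likeness was measured as the root mean square difference of log2 CPM after each gene was centred on its own mean, so 0 means the same profile. PIF3 and PIF5 were the closest pair, at 0.18, and PIF4 and HFR1 the most distant, at 1.07. PIF4 and PIF5 lay between, at 0.56, near PIF4 and PIF3 at 0.53. Among 20467 other genes of at least 1 CPM, the nearest to PHYB were AT1G80000 (0.032) and AT1G60160 (0.033), and the nearest to PIF3 were CPSF30 (0.021) and TGH (0.043). For PIF4 they were AT1G69890 (0.090) and ATMG00160 (0.14), and for PIF5 AT2G25590 (0.029) and GTE8 (0.044). They were AT2G30890 (0.13) and PSD2 (0.14) for HFR1, SUC2 and SQP1 (both 0.15) for PIL1, and AT2G02370 (0.12) and AT5G05085 (0.15) for ATHB2.

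The remaining genes of the pathway were taken from lists of other phytochromes, other PIFs, phytochrome partners and light regulators, the evening complex, and other shade response genes. Of these 44 genes 42 could be tested, the auxin synthesis genes YUC5 and YUC9 being too low. For LNJ-OX against Col-0, 0 rose (0.837% of all genes did) and 2 fell (0.585%), AT4G34550 and PRE1. For jazD against Col-0, 1 rose (0.44%), ST2A, and 0 fell (0.674%). For LNJ-OX against jazD, 0 were higher (0.449%) and 1 was lower (0.332%), again ST2A. The medians were 0.04, 0.01 and -0.06 in that order of comparisons, close to 0 as for all genes.

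None of the 4 other phytochromes and none of the 4 other PIFs passed in any comparison with edgeR. At an unadjusted p under 0.05, 1 of the 4 phytochromes passed for LNJ-OX against Col-0 (18.4% of all genes) and 1 for jazD against Col-0 (14.9%), where 1 of the 4 PIFs also passed. PHYA, the receptor for continuous far-red light, had the largest estimate among phytochromes for LNJ-OX, at 66.4 and 62.6 CPM against 39.8 and 39.5 CPM in Col-0 (log2 fold change 0.70, SE 0.27, edgeR adjusted p = 0.191). PHYD, the closest relative of PHYB, had 23.7 and 18.6 CPM in jazD against 13.7 and 8.83 CPM in Col-0 (0.90, SE 0.28, edgeR adjusted p = 0.121). In LNJ-OX PHYD had 17.4 and 16.4 CPM (0.57 against Col-0, adjusted p = 0.308). PHYC had log2 fold changes of 0.06 and 0.07, and PHYE of -0.17 and -0.06, in LNJ-OX and jazD against Col-0.

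Among PIFs, PIF1, which represses seed germination and greening in the dark, had 24.2 and 32.1 CPM in jazD against 21.9 and 14.3 CPM in Col-0 (0.63, SE 0.27, edgeR adjusted p = 0.303). PIF7, a main driver of the shade response, had log2 fold changes of -0.34 in LNJ-OX and -0.22 in jazD against Col-0. PIF6 gave 0.06 in LNJ-OX and -0.19 in jazD, and PIF8 gave -0.44 in LNJ-OX and -0.18 in jazD. In the comparison of LNJ-OX with jazD the extremes were PHYA (0.32) and PHYD (-0.32) among phytochromes, and PIF6 (0.25) and PIF1 (-0.27) among PIFs.

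AT4G34550, from the list of phytochrome partners, had 4.74 and 7.14 CPM in LNJ-OX and 8.49 and 6.69 CPM in jazD, against 19.3 and 20.3 CPM in Col-0. In LNJ-OX it fell by 1.74 on the log2 scale (edgeR adjusted p = 0.00895, SE 0.30), while in jazD the estimate was -1.38 (adjusted p = 0.0261). PRE1, a small helix-loop-helix protein that promotes elongation, had 3.55 and 3.44 CPM in LNJ-OX and 4.61 and 4.81 CPM in jazD, against 10.8 and 15.4 CPM in Col-0. In LNJ-OX it fell by 1.90 on the log2 scale (edgeR adjusted p = 0.00905, SE 0.33), while in jazD the estimate was -1.47 (adjusted p = 0.0298). Both genes lay below Col-0 in all 4 libraries of LNJ-OX and jazD, but neither was called in jazD with edgeR as fitted here. Of all genes, 47.8% did not overlap Col-0 in LNJ-OX and 40.6% did not in jazD. The share for both genotypes at once was not counted. Both calls in LNJ-OX lay just inside the threshold. Both were lost with library totals and with only the 4 libraries compared (adjusted p 0.0157 to 0.0175), and PRE1 also with limma-voom (adjusted p = 0.0123). With any 1 of the 6 libraries left out PRE1 was not called (adjusted p 0.0142 to 0.0561). AT4G34550 was called without LNJ-OX replicate 2 (adjusted p = 0.00604) and not without any other library (0.0132 to 0.0855).

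ST2A, a sulfotransferase of hydroxylated jasmonates, had 34.9 and 31.3 CPM in jazD and 11.1 and 9.90 CPM in LNJ-OX, against 9.64 and 7.42 CPM in Col-0. It rose by a log2 fold change of 1.95 in jazD (SE 0.25, edgeR adjusted p = 0.00256), and the estimate in LNJ-OX was 0.29 (SE 0.25, adjusted p = 0.593). The direct comparison of LNJ-OX with jazD gave -1.66 (SE 0.25, adjusted p = 0.0062). Without any 1 of the 4 libraries compared, the adjusted p for jazD lay between 0.0109 and 0.031, above the threshold of 0.01. In the direct comparison of LNJ-OX with jazD it lay between 0.0231 and 0.0618.

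**Figure D4:**
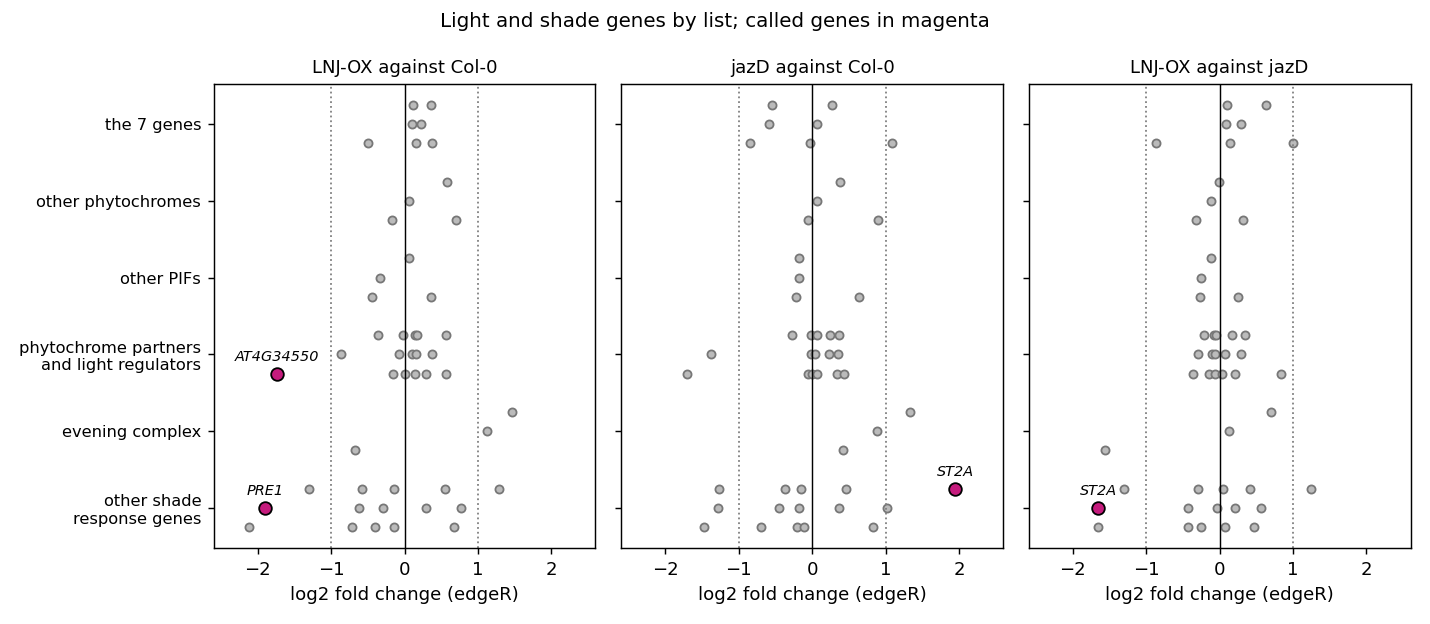
Log2 fold changes from edgeR of the 7 genes and the other genes of the pathway, grouped by list, in 1 panel for each of the 3 comparisons. Each point is a gene, dotted lines mark a log2 fold change of 1 in either direction, and called genes are in magenta, AT4G34550 (-1.74) and PRE1 (-1.90) for LNJ-OX against Col-0 and ST2A for jazD against Col-0 (1.95) and LNJ-OX against jazD (-1.66).

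In the evening complex, a clock repressor that acts on PIF4, no gene passed with edgeR as fitted here. LUX had 39.0 and 38.6 CPM in jazD and 14.6 and 11.5 CPM in LNJ-OX, against 15.9 and 26.1 CPM in Col-0. Its log2 fold change was 0.89 for jazD against Col-0 (SE 0.28, edgeR adjusted p = 0.117) and -1.57 for LNJ-OX against jazD (adjusted p = 0.0159). For the second of these LUX was called in 6 of 14 alternatives, among them DESeq2 (adjusted p = 0.000176) and no filter (adjusted p = 2.72e-06), and the adjusted p reached 0.119 without jazD replicate 2. As for PIF4, both jazD libraries lay above the other 4. The share of all genes with this order was not counted, and a link between LUX and PIF4 was not tested. ELF3 had 20.3 and 18.6 CPM in LNJ-OX and 14.5 and 9.52 CPM in jazD, against 11.5 and 6.20 CPM in Col-0 (1.12 in LNJ-OX, adjusted p = 0.0899). ELF4 was below 2 CPM in every library, with estimates of 1.46 in LNJ-OX (adjusted p = 0.285) and 1.33 in jazD (adjusted p = 0.442).

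Among light regulators the largest positive estimate in LNJ-OX was that of CRY2, a blue light receptor (0.56, edgeR adjusted p = 0.278). In jazD the extremes were FHY1 (0.43) and FHL (-1.70, SE 0.63, adjusted p = 0.206), related proteins that carry phytochrome A into the nucleus. FHL lay under 3 CPM in every library. Among shade response genes TAA1, an enzyme of auxin synthesis, had 1.05 and 1.12 CPM in LNJ-OX and 4.09 and 2.83 CPM in jazD, against 3.09 and 6.48 CPM in Col-0. Its log2 fold change was -2.12 for LNJ-OX against Col-0 (SE 0.51, edgeR adjusted p = 0.0392) and -1.66 for LNJ-OX against jazD (adjusted p = 0.161). YUC8, which acts after TAA1, had the largest positive estimate of that list in LNJ-OX (1.29, SE 0.66, adjusted p = 0.34), at under 2 CPM. XTH15, a cell wall enzyme, had 13.2 and 19.0 CPM in LNJ-OX against 6.82 and 6.79 CPM in jazD (1.24, adjusted p = 0.184). In the comparison of LNJ-OX with jazD other extremes were ELF3 in the evening complex (0.70), and FHL (0.83) and AT4G34550 (-0.36) among light regulators.

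Genes named next were chosen after their values were seen, being those under an adjusted p of 0.05 that did not pass 0.01. HAT1, a relative of ATHB2, had 9.55 and 14.2 CPM in LNJ-OX and 9.12 and 14.99 CPM in jazD, against 27.5 and 31.1 CPM in Col-0 (-1.31, edgeR adjusted p = 0.0331, and -1.28, adjusted p = 0.0418). IAA19, an auxin response repressor, had 9.81 and 9.90 CPM in LNJ-OX and 7.34 and 6.03 CPM in jazD, against 14.6 and 17.9 CPM in Col-0 (-1.28 in jazD, edgeR adjusted p = 0.0278). For IAA19 in LNJ-OX the estimate was -0.72 (edgeR adjusted p = 0.173). HAT1 and IAA19 were below every Col-0 library in all 4 libraries of the other genotypes, whereas ATHB2 overlapped Col-0. Of all genes, 47.8% did not overlap Col-0 in LNJ-OX and 40.6% did not in jazD. The share for both genotypes at once was not counted. CKX5, a cytokinin oxidase, had 6.78 and 7.57 CPM in LNJ-OX against 16.1 and 19.3 CPM in jazD (-1.31, edgeR adjusted p = 0.0391), and 9.95 and 7.51 CPM in Col-0.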

How the data were processed

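RNA-seq libraries of 3 genotypes were analysed, 2 each, grouped by the labels. The study describes 2 biological replicates for each genotype, and the labels do not say whether these came from separate plants. The p-values rest on the spread between libraries within genotypes, estimated over the 3 genotypes together with information shared between genes. The authors deposited read counts per gene for each library. The submitters' processing notes name Trim Galore 0.6.3, HISAT2 2.1.0, HTSeq 0.9.1 and the build TAIR10. The strand setting is not given in the sources used here, so antisense reads cannot be told apart. No annotated gene overlapped the 7 genes, and 0 of the stretches of 50 bases in their exons occurred elsewhere in the genome. Tables of the authors' own limma-voom comparisons (log2 fold changes and p-values) were not used.

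With edgeR 4.0.16 under R 4.3.3, all 6 libraries were fitted together (quasi-likelihood test, TMM factors, filterByExpr). Benjamini-Hochberg adjustment covered the 21374 genes that passed the filter. Calls required an adjusted p below 0.01 and a log2 fold change of more than 1 in size. The biological coefficient of variation was 0.232. Totals were 14850297 and 11046638 for LNJ-OX, 10164591 and 10218756 for jazD, and 15003290 and 11878135 for Col-0. CPM are relative levels, so a gene can differ because other genes took a larger share. Replicates differed by far more than sampling noise. The chi-square per degree of freedom was 14.8 in jazD, 16.8 in LNJ-OX and 42.8 in Col-0, so the Col-0 libraries differed the most. Names, lengths and sequence came from RefSeq's TAIR10.1, in which 32548 genes matched. Profiles used a prior count of 2.

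The 7 genes and the lists were chosen with earlier results of these data known. Named by rule were all members, phytochromes and PIFs, the called genes of each list, the largest estimates per list, comparison and direction, and the nearest profiles. AFP2 and NINJA were the planned check of the genotypes, and the tissue markers were summed to compare tissue between libraries. JAZ2 and JAZ6 were added outside the naming rule, and other JAZ genes are not given here. The alternatives tried were RLE factors, library totals without factors, no filter, 1 CPM in 2 libraries, DESeq2 1.42.0, limma-voom (limma 3.58.1), a replicate block, only the 4 libraries compared, an adjusted p under 0.05 with no minimum fold, and each library left out. The procedure was tested on simulated data in which 200 genes were changed 4-fold in LNJ-OX. For LNJ-OX against Col-0, 184 of them were recovered, with 8 false calls. The changed genes were drawn from those above a minimum level.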

Additional observations from a re-analysis of the deposited data

Results flagged for a closer look

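ST2A was singled out because its difference from Col-0 was not the same in LNJ-OX and in jazD by a test of the difference itself. The log2 difference between the LNJ-OX and the jazD effect was -1.66 (edgeR adjusted p = 0.0062). The adjusted p was above 0.01 without any 1 of the 4 libraries compared (0.0231 to 0.0618) and when only library totals were used for scaling (0.019).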

How the results depend on the processing

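The count of the 7 genes called was 0 for all comparisons under every alternative run, leave-one-out included, except with no filter, where it was 1 (PIF4) for jazD against Col-0. For list genes, LNJ-OX against Col-0 had 0 calls with library totals and with only the 4 libraries, 1 with limma-voom, 3 with DESeq2 and with the replicate block, 4 at an adjusted p under 0.05 with no minimum fold and 5 with no filter. For jazD against Col-0 list genes had 2 calls with DESeq2 and with the replicate block, and 5 with no filter and at the looser threshold. For LNJ-OX against jazD they had 0 with library totals, 2 with DESeq2, with the replicate block and with only the 4 libraries, 3 at the looser threshold and 4 with no filter. Over all genes, LNJ-OX against Col-0 had 1398 calls with no filter, 822 with DESeq2, 670 with the replicate block, 170 with only the 4 libraries and 1037 at the looser threshold, beside 304. For jazD against Col-0 these were 1310, 718, 654, 578 and 882, and 143 with library totals and with limma-voom, beside 238. For LNJ-OX against jazD there were 939, 502, 355 and 441 with no filter, DESeq2, the replicate block and the looser threshold, beside 167. The cause of these shifts was not tested.

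With each library left out, list calls ranged from 0 to 1 for LNJ-OX, 0 to 1 for jazD and 0 to 2 for LNJ-OX against jazD. All calls ranged from 11 (without Col-0 replicate 1) to 478 (without LNJ-OX replicate 2), from 32 (without Col-0 replicate 1) to 592 (without LNJ-OX replicate 2) and from 52 (without jazD replicate 2) to 236. A group left with 1 library was assumed to vary like the others. Over all genes, deviations of same-numbered libraries from their group means correlated at 0.0891, 0.0587 and -0.00281, so no general pairing by replicate number was seen. A factor shared by same-numbered libraries for some genes only was not tested. With the replicate block PIF4 in jazD had an adjusted p of 0.0194 and stayed above the threshold. HFR1 and PIL1 had the fewest counts of the 7 genes, 14 to 74 a library.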
